A study of Mus musculus with 6 samples.

Results

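Adrenomedullin and adrenomedullin 2 are small peptide hormones, and this account follows the 8 mouse genes that encode them, carry their signal or finish the peptides. Adm and Adm2 encode the peptide precursors, Calcrl encodes the receptor, Ramp1, Ramp2 and Ramp3 encode the receptor's partner proteins, and Cpe and Pam encode enzymes of peptide processing. They were found by gene symbol among the 24421 genes of the deposited count table, and all 8 were present. All 8 also passed the filter on low counts that left 13762 genes for testing. The group was chosen by function and with earlier results of the same comparison in view, in which the counts of Adm2 and Cpe had been among the largest rises in the knockouts. The values of the 8 genes in that comparison are therefore given as a description, with no p-value for any of them.

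The peptides are cut from longer precursors in the secretory pathway, trimmed of basic residues by carboxypeptidases such as the one encoded by Cpe, and given the C-terminal amide that they need for activity by the monooxygenase encoded by Pam. Calcrl is a G protein-coupled receptor that reaches the cell surface with a receptor activity-modifying protein (RAMP): with RAMP1 it forms the receptor of calcitonin gene-related peptide, and with RAMP2 or RAMP3 a receptor of adrenomedullin. Adrenomedullin 2, also called intermedin, can act through each of the 3 combinations. Adrenomedullin is best known as a dilator of blood vessels and as a factor that endothelium, blood and lymphatic, needs in development.

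The RNA-seq libraries, made from polyadenylated RNA, represent entire prostates taken from C57BL/6 mice at 52 weeks of age. The knockout group (genotype p62FSP1KO, 3 libraries) came from mice with floxed p62 alleles and FSP1-Cre; FSP1 is the product of S100a4, a gene used to mark fibroblasts. The control group (p62f/f, 3 libraries) came from mice with the floxed alleles and no Cre in their labels, and the labels call it wild type. p62 is the autophagy adaptor encoded by Sqstm1, deleted in the stroma per the labels, and the series title ties it to ATF4, a stress-induced transcription factor, and to metabolism in that compartment. The RNA came from the whole organ, so epithelium and other cells with no deletion contribute, and fewer cells of a type and less RNA per cell cannot be told apart. The labels do not say that each library is a separate animal, so the tests measure the spread between these samples.

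Total counts ran from 14761703 to 26910053 in the knockouts and from 12826463 to 20011908 in the controls. Levels are given as CPM, which are counts scaled to a common library total after correction by TMM factors. Sqstm1 was at 541, 387 and 462 CPM in knockout 1, 2 and 3, against 360, 409 and 295 CPM in control 1, 2 and 3, so the RNA of the whole organ did not check the labels. Prostate secretory genes were abundant in all 6 libraries, though not the same ones. Sbp, Sbpl and Spink1, which are secretory genes typical of the ventral lobe, summed to 3.03 to 91.7 CPM in knockouts and to 49129 to 164610 CPM in controls. Control 3 stood apart from control 1 and 2: its adipocyte markers summed to 1559 CPM, against 128 to 226 CPM in knockouts and 136 to 152 CPM in control 1 and 2, and its secretory gene 9530053A07Rik was at 129 CPM, against 127810 CPM or more in each of the other 5 libraries. Seminal vesicle genes summed to at most 3.91 CPM in any library.

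Adm2 and Cpe were higher in all 3 knockout libraries than in any control, Pam was lower in all 3, and the other 5 genes differed less. In the fit across all genes (edgeR's quasi-likelihood test, false discovery rate of 0.05) 2 of the 8 were called higher, where 0.414% of all genes tested were, and 1 of the 8 was called lower, where 4.66% were. The comparison had a part in choosing the 8 genes, so nothing is read from these shares. Calls in either direction made up 5.07% of all genes tested. For 4 of the 8 genes, Adm2, Cpe, Pam and Calcrl, the knockout and control values did not overlap, as was the case for 32.4% of all genes tested. The median log2 fold change was 0.31 over the 8 genes and 0.03 over all genes tested.

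**Figure D1:**
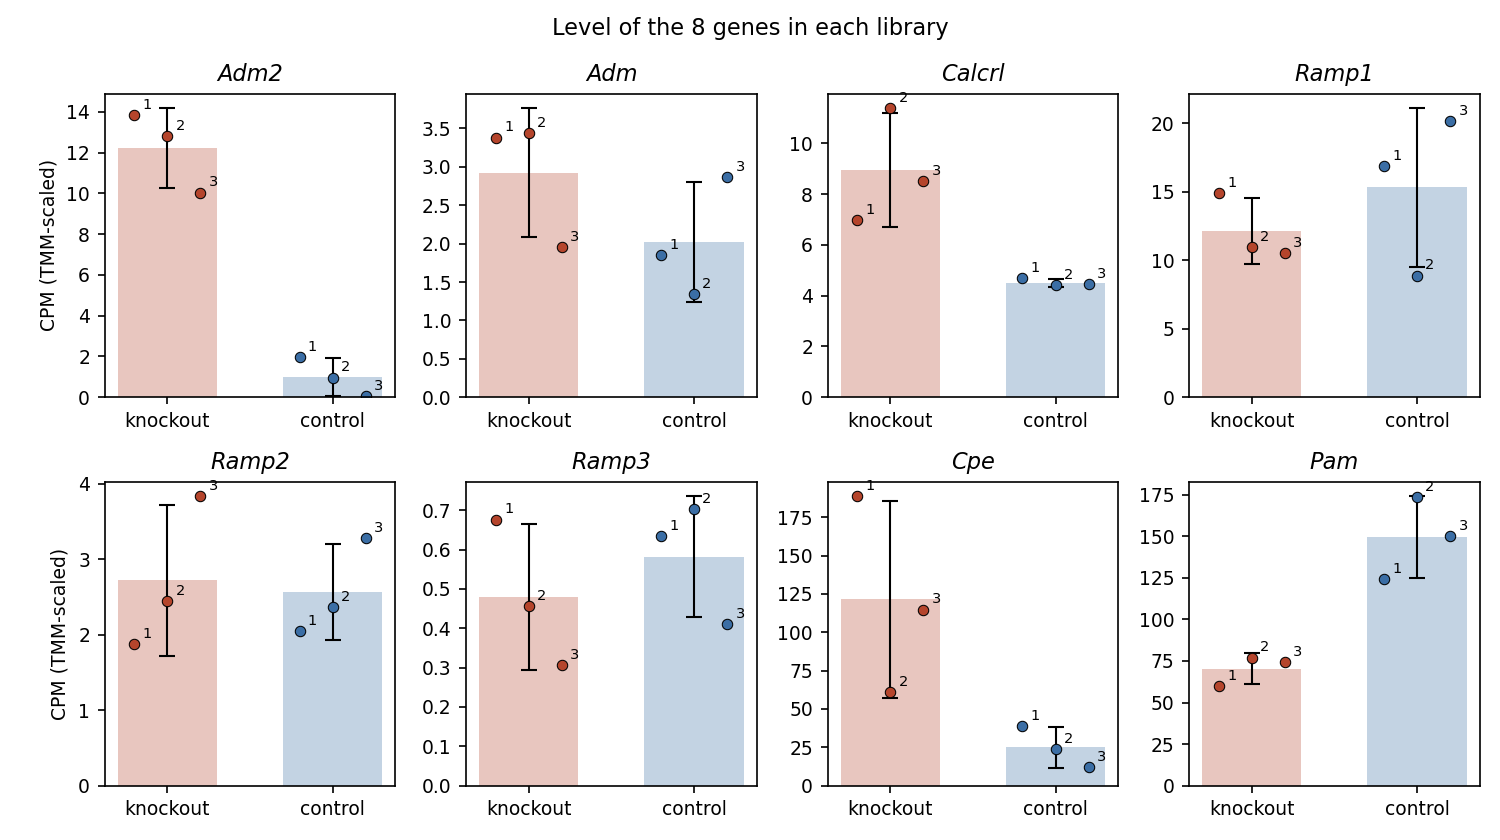
Level of each of the 8 genes in TMM-scaled CPM on linear axes that start at 0; points are single libraries with their replicate numbers, bars are group means and error bars the SD of 3 libraries. Adm2 stood at 10.04 to 13.8 CPM in knockouts and at 0.068 to 1.95 CPM in controls, Pam at 59.7 to 77.0 CPM in knockouts and 124 to 174 CPM in controls, and the values of Adm, Ramp1, Ramp2 and Ramp3 overlapped between the groups.

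The proximal promoters of 3 of the genes whose groups did not overlap are shown, so that the start regions behind these RNA values can be seen: Adm2, which was higher in the knockouts, Pam, which was lower, and Calcrl, which was higher but not called. They are RefSeq sequences of the build GRCm38.p6, 250 bases before to 50 bases from the start of transcription on, written 5′ to 3′ on the transcribed strand. The capital at the boundary marks the first transcribed base, and the run of capitals in Calcrl marks a match described after the sequences.
Adm2 (chr15:89322470-89322769, plus strand): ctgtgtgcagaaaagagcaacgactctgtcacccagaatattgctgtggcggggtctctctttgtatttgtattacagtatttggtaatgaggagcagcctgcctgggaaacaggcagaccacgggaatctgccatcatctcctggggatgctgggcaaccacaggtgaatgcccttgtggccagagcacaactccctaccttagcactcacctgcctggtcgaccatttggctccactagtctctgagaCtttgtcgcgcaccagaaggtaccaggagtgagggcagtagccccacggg
Pam (chr1:98095597-98095896, minus strand): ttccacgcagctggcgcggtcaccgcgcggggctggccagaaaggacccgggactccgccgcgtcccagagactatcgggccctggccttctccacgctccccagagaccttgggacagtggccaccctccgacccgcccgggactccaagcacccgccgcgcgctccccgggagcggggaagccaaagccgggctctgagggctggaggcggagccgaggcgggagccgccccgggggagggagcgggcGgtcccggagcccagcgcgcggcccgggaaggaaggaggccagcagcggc
Calcrl (chr2:84425217-84425516, minus strand): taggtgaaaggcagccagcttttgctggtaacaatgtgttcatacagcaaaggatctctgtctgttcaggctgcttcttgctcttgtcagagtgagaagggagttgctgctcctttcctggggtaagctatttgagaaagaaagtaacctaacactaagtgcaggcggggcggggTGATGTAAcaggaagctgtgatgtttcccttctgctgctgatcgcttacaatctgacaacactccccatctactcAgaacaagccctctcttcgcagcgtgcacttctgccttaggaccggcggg

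Promoter sequences were matched for 6 of the 8 genes, Adm, Adm2, Calcrl, Ramp1, Ramp3 and Pam, in 7 windows, since Pam had 2 overlapping ones. G and C made up 54.7% of the Adm2 window, 76.3% of the Pam window and 50.7% of the Calcrl window, against a median of 52.7% over 32851 promoter windows. The windows were searched on both strands for 3 sets of letters. TGATGNAA, the core of the element that ATF4 binds with C/EBP factors, was in 1 of the 7 windows and in 3.97% of all windows. That match, TGATGTAA, lies in Calcrl and begins at position -75 relative to the start of transcription. ACGTG, a form of the core that hypoxia-inducible factors bind, was in 0 of the 7 windows and in 19.6% of all windows. Other forms of that core were not searched for, so the 0 does not show that the core was absent. TGACG, the half-site of the cyclic AMP response element, was in 1 of the 7, Ramp1, and in 20.8% of all windows. None of the 3 sets of letters was in the Adm2 window or in either Pam window, and these letters were not looked for elsewhere.

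Adm2 showed the widest difference among the 8 genes. The gene (GRCm38 chromosome 15, 89322720 to 89324731, plus strand, 3 exon blocks) had 184, 309 and 262 reads in knockout 1, 2 and 3, against 40, 15 and 1 reads in control 1, 2 and 3. Scaled, this was 13.8, 12.8 and 10.04 CPM in the knockouts, against 1.95, 0.96 and 0.068 CPM in the controls. The lowest knockout value was thus above the highest control value, and the controls differed more among themselves, relative to their mean, than the knockouts did. The group means were 12.2 ± 1.96 CPM in knockouts and 0.99 ± 0.94 CPM in controls (SD, n = 3 each), with a log2 fold change of 3.57 ± 0.74 (SE). The size of the fold change rests on few control reads: it was 4.53 on the log2 scale without control 1 and 3.04 without control 3, whose single read is below the 3 reads (0.205 CPM) taken here as a floor. The call held without control 1 or control 3 and was lost without any other single library.

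Adm, which encodes adrenomedullin itself, was low in both groups. The gene (chromosome 7, 110627661 to 110629820, plus strand) was at 3.38, 3.44 and 1.95 CPM in knockout 1, 2 and 3, against 1.85, 1.34 and 2.87 CPM in control 1, 2 and 3. Knockout 3 fell within the range of the controls and control 3 within that of the knockouts. The log2 fold change was 0.53 ± 0.42 (SE), and the gene was not called. Per kilobase of exon, Adm2 was at 5.10, 4.64 and 6.41 times the level of Adm in knockout 1, 2 and 3, against 1.31, 0.89 and 0.030 times in control 1, 2 and 3. Adm2 was the more abundant of the pair in all 3 knockouts and in control 1. The ratio is taken within a library and does not depend on the scaling between libraries.

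Calcrl, the receptor gene, was at 6.99, 11.4 and 8.51 CPM in knockout 1, 2 and 3, against 4.68, 4.41 and 4.44 CPM in control 1, 2 and 3. The controls lay close together and all 3 knockouts lay above them. The means were 8.96 ± 2.24 CPM in knockouts and 4.51 ± 0.15 CPM in controls (SD, n = 3 each), with a log2 fold change of 0.99 ± 0.27 (SE). The gene (chromosome 2, 84330626 to 84425411, minus strand) was not called by edgeR, and it was called by DESeq2 and by edgeR without control 3 and knockout 1. Calcrl is known for its expression in endothelium, and the 17 endothelial markers summed to 141, 139 and 175 CPM in knockout 1, 2 and 3, against 106, 104 and 129 CPM in control 1, 2 and 3. Calcrl was 4.94%, 8.18% and 4.87% of that sum in the knockouts, against 4.40%, 4.23% and 3.43% in the controls. The marker sum and the share of Calcrl in it were both higher in each knockout than in any control. Without Emcn, a marker left out after seeing the data, the sum was 96.6, 116 and 152 CPM in knockout 1, 2 and 3, against 92.0, 89.8 and 127 CPM in control 1, 2 and 3, and the groups overlapped. The share of Calcrl in that smaller sum was 5.61% to 9.81% in knockouts and 3.50% to 5.09% in controls, without overlap. The part that the amount of endothelium has in the Calcrl values was not tested.

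Of the 17 endothelial markers 0 were called by edgeR, DESeq2 or limma-voom, and 2 had an unadjusted p under 0.05 (edgeR). In the whole table, 3045 of 13762 genes tested had such a p and DESeq2 called 1618. The median log2 fold change of the 17 markers was 0.33, and 12 were positive. Emcn, the endomucin gene of capillaries and veins, stood at 30.3 ± 12.6 CPM in knockouts and 10.5 ± 6.76 CPM in controls (SD, n = 3 each). Eng, which encodes a co-receptor of TGF-beta ligands, stood at 8.04 to 19.3 CPM in knockouts and at 7.34 to 12.6 CPM in controls. Of the 5 tested markers of lymphatic endothelium 0 were called by edgeR, DESeq2 or limma-voom, and 0 had an unadjusted p under 0.05 (edgeR). Their median log2 fold change was 0.52, and all 5 were positive. Lyve1, the hyaluronan receptor of lymphatic vessels, stood at 10.9 ± 2.73 CPM in knockouts and 7.62 ± 2.29 CPM in controls.

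The RAMP genes, which set what Calcrl responds to, were not called. Ramp1 was at 14.9, 10.9 and 10.5 CPM in knockout 1, 2 and 3, against 16.9, 8.87 and 20.2 CPM in control 1, 2 and 3, with a log2 fold change of -0.34 ± 0.33 (SE). Ramp2 was at 1.88, 2.45 and 3.83 CPM in the knockouts, against 2.05, 2.36 and 3.28 CPM in the controls, with a log2 fold change of 0.10 ± 0.39. Ramp3 had 9, 11 and 8 reads in the knockouts, against 13, 11 and 6 reads in the controls, and a log2 fold change of -0.33 ± 0.51. The groups overlapped for each of the 3 genes. At 6 to 13 reads a library, only a large change of Ramp3 would have been detectable at this depth. Exons of Ramp2 share 33.4% of their length with Vps25 on the same strand, so the division of reads between those genes is uncertain.

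By level per kilobase, Ramp1 made up most of the RAMP transcripts in every library. Per kilobase of exon it took 82.3%, 77.2% and 71.6% of the summed RAMP level in knockout 1, 2 and 3, against 83.8%, 70.6% and 83.8% in control 1, 2 and 3. Ramp2 took 9.51% to 23.8% of the sum in knockouts and 9.31% to 17.2% in controls, and Ramp3 took 4.56% to 8.19% and 3.73% to 12.2% in knockouts and controls. By this measure the 2 partners that make an adrenomedullin receptor were the minor ones in both genotypes. The share of Ramp2 is uncertain, since it rests on 3.301 kb of exon pooled over all annotated transcripts. Of that length 33.4% is shared with Vps25. Relative to the receptor, the RAMP sum was lower in the knockouts: it was 4.18, 2.01 and 2.79 times the level of Calcrl in knockout 1, 2 and 3, against 6.95, 4.61 and 8.75 times in control 1, 2 and 3. Ramp1 alone was at 1.55 to 3.44 times the level of Calcrl in knockouts and 3.25 to 7.33 times in controls, and Ramp2 at 0.32 to 0.67 times in knockouts and 0.65 to 1.09 times in controls. The ratio of the sum did not overlap between the groups, whereas these single ratios and the RAMP sum itself did (4.69 to 5.98 CPM per kilobase in knockouts and 4.16 to 7.96 CPM per kilobase in controls).

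**Figure D2:**
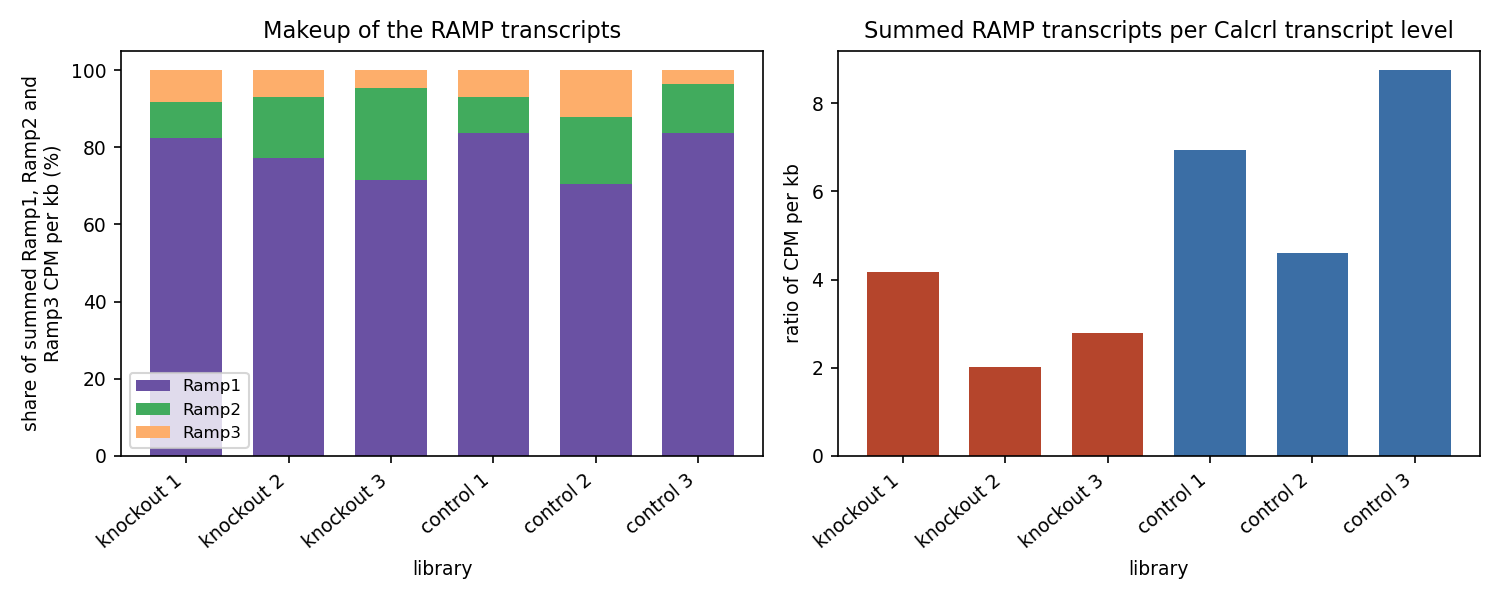
Left, stacked bars give each RAMP gene's share, in percent, of the summed Ramp1, Ramp2 and Ramp3 level (CPM per kilobase of exon) in each library; right, bars give the ratio of that sum to the level of Calcrl, with knockouts in red and controls in blue. Ramp1 held 70.6% to 83.8% in all 6 libraries, and the ratio was 2.01 to 4.18 in knockouts and 4.61 to 8.75 in controls. The shares depend on the exon lengths used, and that of Ramp2 is uncertain because its exons overlap those of Vps25.

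The processing enzymes moved in opposite directions. Cpe, the carboxypeptidase that removes C-terminal basic residues from peptide intermediates, was at 189, 61.0 and 115 CPM in knockout 1, 2 and 3, against 38.8, 23.7 and 12.3 CPM in control 1, 2 and 3. All knockouts lay above all controls, and the knockouts varied widely among themselves, with knockout 1 highest and knockout 2 lowest. The means were 121 ± 64.1 CPM in knockouts and 24.9 ± 13.3 CPM in controls (SD, n = 3 each), with a log2 fold change of 2.28 ± 0.52 (SE). The gene (chromosome 8, 64592542 to 64693054, minus strand) was called with all 6 libraries, lost its call when any single library was left out, and was not called by limma-voom.

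Pam, whose enzyme puts the C-terminal amide on adrenomedullin and many other peptides, was at 59.7, 77.0 and 74.4 CPM in knockout 1, 2 and 3, against 124, 174 and 150 CPM in control 1, 2 and 3. The highest knockout value was well below the lowest control value. The means were 70.4 ± 9.32 CPM in knockouts and 149 ± 24.6 CPM in controls (SD, n = 3 each), with a log2 fold change of -1.08 ± 0.20 (SE). The gene (chromosome 1, 97795114 to 98095646, minus strand, 32 exon blocks) kept its call without control 1 or control 3 and lost it without any other single library. Cpe was at 14.4, 3.61 and 7.03 times the level of Pam per kilobase in knockout 1, 2 and 3, against 1.42, 0.62 and 0.37 times in control 1, 2 and 3. By this measure the trimming enzyme was the more abundant transcript in each knockout library, and in controls only in control 1. That order depends on the exon lengths, 2.609 kb for Cpe and 11.892 kb for Pam, each pooled over all annotated transcripts of the gene. In CPM without division by length, Cpe was above Pam in knockout 1 and 3 only.

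**Figure D3:**
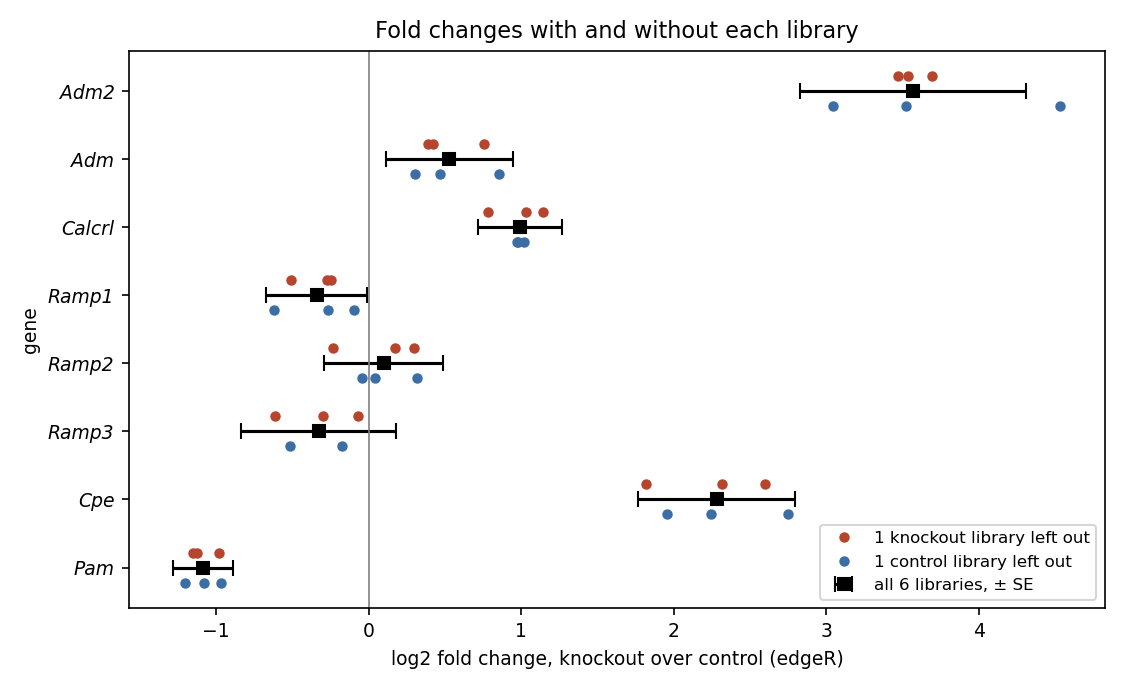
Log2 fold change of each gene, knockout over control, from edgeR; black squares with bars are the fit of all 6 libraries ± SE, red points the fits with 1 knockout library left out and blue points those with 1 control library left out (Ramp3 did not pass the count filter without control 1). Adm2 (3.57), Cpe (2.28), Calcrl (0.99) and Adm (0.53) were positive and Pam (-1.08) was negative in each of these fits, while Ramp2 took both signs.

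The order of the 8 genes by level per kilobase differed between the groups. Each length pools the exons of all annotated transcripts of a gene, so the order within a group depends on those lengths. In knockouts the order from high to low was Cpe (46.6 ± 24.6 CPM per kilobase), Adm2 (9.42 ± 1.51), Pam (5.92 ± 0.78), Ramp1 (4.01 ± 0.79), Calcrl (1.84 ± 0.46), Adm (1.81 ± 0.52), Ramp2 (0.82 ± 0.30) and Ramp3 (0.35 ± 0.13), each with its SD over 3 libraries. Of these neighbours, Calcrl and Adm had overlapping values and the other pairs did not. In controls the order was Pam (12.6 ± 2.07), Cpe (9.55 ± 5.09), Ramp1 (5.06 ± 1.92), Adm (1.25 ± 0.48), Calcrl (0.92 ± 0.031), Ramp2 (0.78 ± 0.19), Adm2 (0.76 ± 0.73) and Ramp3 (0.42 ± 0.11). There the values of Ramp1 and Adm did not overlap and those of every other neighbouring pair did. Adm2 stood second in the knockouts and seventh in the controls, and Ramp3 was lowest in both groups.

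The genes with the most similar profiles over the 6 libraries, among 11308 to 11309 searched, were named by Pearson's r of log2 CPM, as a description that includes the difference between the groups. For Adm2 these were Desi1, Idh1 and Moxd1 (r = 0.9987, 0.9983 and 0.9976). Idh1, the cytosolic isocitrate dehydrogenase gene, was at 136, 130 and 132 CPM in knockout 1, 2 and 3, against 83.8, 70.4 and 45.7 CPM in control 1, 2 and 3, with the controls in the same order as for Adm2. For Cpe they were Pfn1, Cdk2ap2 and Zfp322a (r of 0.991 to 0.996), for Pam Clip4, Cchcr1 and Tspan7 (0.992 to 0.995), and for Calcrl F2r, Sema6a and Bmp2 (0.989 to 0.996). F2r, the thrombin receptor gene, was at 7.81, 11.3 and 8.85 CPM in the knockouts, against 5.90, 6.00 and 5.74 CPM in the controls. For the genes that did not separate the groups, they were Prg4, Cmip and Arl6 for Adm (0.965 to 0.976), Zfp846, Pitpnb and Alg3 for Ramp1 (0.977 to 0.988), Rasgrp4, Umps and Map3k4 for Ramp2 (0.975 to 0.992) and Rsf1, Zfp784 and Esco1 for Ramp3 (0.976 to 0.988). No gene appeared under 2 of the 8.

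Among the other genes that bind, clear or answer the same peptide family, the one that changed was Mme. It encodes neprilysin, a cell-surface peptidase that degrades adrenomedullin, substance P and other small peptides. Mme was at 137, 104 and 240 CPM in knockout 1, 2 and 3, against 903, 795 and 1233 CPM in control 1, 2 and 3. It fell with a log2 fold change of -2.61 ± 0.38 (SE, adjusted p = 0.00907, edgeR). The call of Mme held in each of the 6 fits with 1 library left out. This list and the lists that follow were chosen with earlier results of these data known, so their calls are a description. With the secretory covariate added after seeing the data, which is described with the tissue markers, Mme and every other called gene of the calcitonin family, processing, granule, amidated precursor and receptor signalling lists lost its call. Of the 4 tested genes of this list 1 fell and 0 rose, against 4.66% called lower and 0.414% called higher among all genes tested. The list's median log2 fold change was 0.21. The precursors of calcitonin gene-related peptide, Calca and Calcb, had 8 and 14 reads over all 6 libraries, and Calcr and Iapp had 0. The RNA of these 4 genes was thus at or near the limit of detection, and the peptides themselves were not measured.

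Of 14 tested genes of prohormone processing 2 fell and 0 rose, against 4.66% called lower and 0.414% called higher among all genes tested. The list's median log2 fold change was -0.34. Qpct, the cyclase that closes the N-terminal glutamine of peptides to pyroglutamate, was at 1.503, 1.74 and 1.42 CPM in knockout 1, 2 and 3, against 17.5, 8.68 and 20.8 CPM in control 1, 2 and 3. Its log2 fold change was -3.33 ± 0.38 (SE; adjusted p = 0.00360, edgeR), and it kept its call in each of the 6 fits with 1 library left out. Ctsl, a lysosomal protease gene also linked to the processing of prohormones, fell with a log2 fold change of -1.07 ± 0.22 (adjusted p = 0.0321, edgeR), and lost its call whenever 1 library was left out (adjusted p of up to 0.143). The convertase genes of regulated secretion, Pcsk1 and Pcsk2, had 13 and 22 reads over the 6 libraries. Furin, the convertase of the constitutive pathway, named after its values were seen, was at 57.8, 87.5 and 97.1 CPM in the knockouts, against 98.3, 98.3 and 57.3 CPM in the controls (adjusted p = 0.91, edgeR).

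Of 8 tested genes of secretory granules 2 fell and 0 rose, against 4.66% called lower and 0.414% called higher among all genes tested. The list's median log2 fold change was -0.11. Rab27a, a small GTPase that docks secretory granules at the membrane, was at 3.83, 6.47 and 5.90 CPM in knockout 1, 2 and 3, against 26.2, 22.5 and 43.5 CPM in control 1, 2 and 3. Its log2 fold change was -2.50 ± 0.33 (SE; adjusted p = 0.00675, edgeR), and it kept its call in each of the 6 fits with 1 library left out. Cadps2, which primes dense-core vesicles for release, fell with a log2 fold change of -1.04 ± 0.22 (adjusted p = 0.0379, edgeR), and lost its call whenever 1 library was left out (adjusted p of up to 0.133). Rab3a, a GTPase of the same family, stood at 33.5 ± 8.46 CPM in knockouts and 21.2 ± 5.79 CPM in controls (adjusted p = 0.215, edgeR).

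Markers of neuroendocrine cells, the cell type in which peptide processing is best known, were low, and several were at or near 0. Insm1 and Neurod1 had 0 reads, Dll3 had 1 read and Celf3 had 2 reads over all 6 libraries. The 11 markers summed to 11.9 to 14.1 CPM in knockouts and to 8.59 to 12.1 CPM in controls. Ncam1, which nerve cells also express, gave 5.18 to 8.08 CPM of this in knockouts and 5.40 to 6.15 CPM in controls. Eno2, a neuronal enolase gene, was at 2.24 to 3.23 CPM in knockouts and 0.93 to 2.81 CPM in controls. Chga, the chromogranin A gene, was at 0.62 to 2.25 CPM in knockouts and 0.068 to 0.78 CPM in controls, and Syp, the synaptophysin gene, at 0.75 to 3.23 CPM in knockouts and 0.63 to 5.13 CPM in controls. Of the 4 tested 0 were called by edgeR, DESeq2 or limma-voom, and 0 had an unadjusted p under 0.05 (edgeR). In the whole table, 3045 of 13762 genes tested had such a p and DESeq2 called 1618.

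Of the 25 other precursors of amidated peptides, the substrates on which Pam acts, 4 had enough reads to be tested. Of these 1 fell and 0 rose, against 4.66% called lower and 0.414% called higher among all genes tested. Their median log2 fold change was 0.72. Tac1, the precursor of substance P and neurokinin A, was at 3.16, 0.29 and 0.38 CPM in knockout 1, 2 and 3, against 67.3, 47.5 and 19.2 CPM in control 1, 2 and 3. Its log2 fold change was -5.29 ± 0.95 (SE; adjusted p = 0.0213, edgeR). The call held in 2 of the 6 fits with 1 library left out (adjusted p of up to 0.0837, without knockout 3). Kiss1, the precursor of kisspeptin, was at 96.5, 45.5 and 35.7 CPM in the knockouts, against 14.4, 21.1 and 0.068 CPM in the controls. Its groups did not overlap, but it was not called (log2 fold change of 2.31 ± 1.08; adjusted p = 0.260, edgeR), and control 3 stood far below control 1 and 2. Gnrh1 and Nmb, the other 2 tested, were not called.

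Downstream of the receptor, Calcrl acts through the stimulatory G protein, adenylyl cyclases and cyclic AMP. Of 21 tested genes of this route 1 fell and 0 rose, against 4.66% called lower and 0.414% called higher among all genes tested. Their median log2 fold change was -0.08. Adcy6, an adenylyl cyclase gene, was at 69.4, 88.1 and 102 CPM in knockout 1, 2 and 3, against 143, 200.3 and 213.3 CPM in control 1, 2 and 3 (log2 fold change of -1.10 ± 0.23, SE; adjusted p = 0.0366, edgeR). That call held in 1 of the 6 fits with 1 library left out. Gnas, the stimulatory G protein gene, stood at 965 ± 47.4 CPM in knockouts and 1011 ± 221 CPM in controls (adjusted p = 0.900, edgeR). Among 4 tested receptors other than Calcrl that can pair with RAMPs, 0 were called by edgeR or limma-voom and 1 by DESeq2. An unadjusted p under 0.05 (edgeR) was found for 1 of them. In the whole table, 3045 of 13762 genes tested had such a p and DESeq2 called 1618. Vipr1, a receptor of vasoactive intestinal peptide, was the most abundant of these 4 receptors. It stood at 98.5 ± 15.5 CPM in knockouts and 72.9 ± 19.3 CPM in controls.

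**Figure D4:**
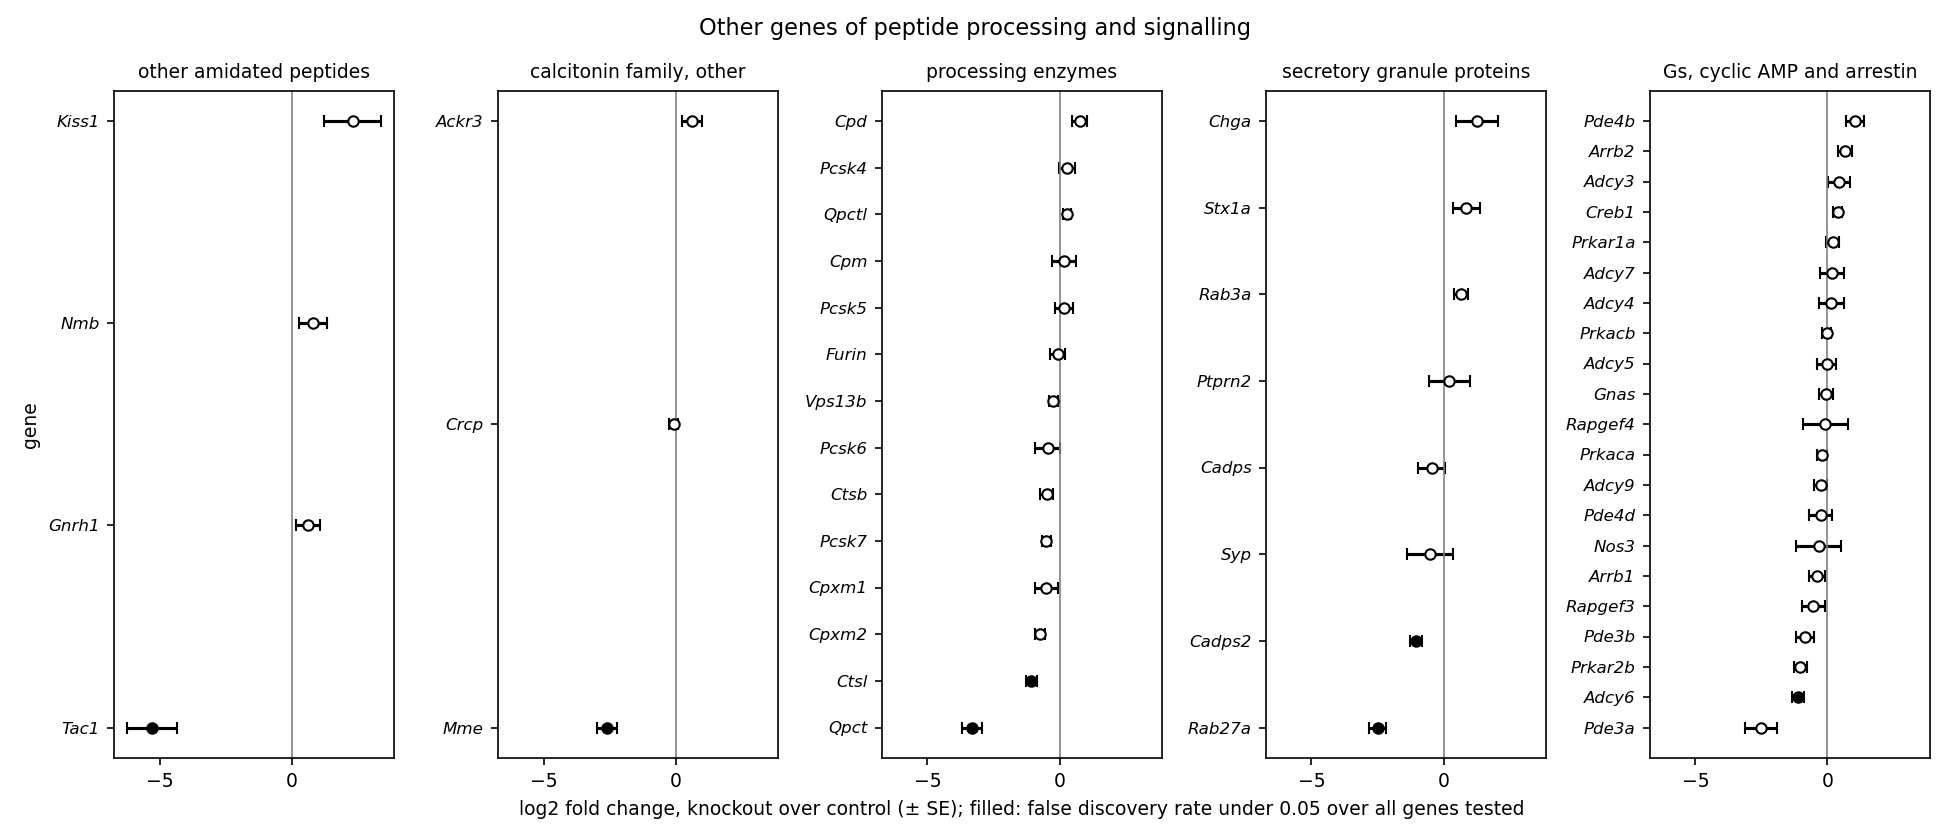
Log2 fold changes, knockout over control, with SE for the tested genes reported from 5 lists: other precursors of amidated peptides, other calcitonin family genes with peptide-binding and degrading proteins, other processing enzymes, secretory granule proteins, and Gs, cyclic AMP and arrestin genes; filled points had a false discovery rate under 0.05 over all genes tested. The filled points, Tac1, Mme, Qpct, Ctsl, Rab27a, Cadps2 and Adcy6, all lie below 0. Calls in the whole table were mostly in that direction too, with 4.66% of all genes tested called lower and 0.414% higher.

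Adm and Adm2 are known to respond to hypoxia, and Adm2 to ATF4 and the stress pathways around it. Of 19 tested hypoxia factors and targets 0 were called by edgeR or limma-voom and 1 by DESeq2. An unadjusted p under 0.05 (edgeR) was found for 3 of them, and their median log2 fold change was -0.02. In the whole table, 3045 of 13762 genes tested had such a p and DESeq2 called 1618. Vegfa, a growth factor gene induced by hypoxia, stood at 119 ± 36.7 CPM in knockouts and 146 ± 20.9 CPM in controls (adjusted p = 0.521, edgeR). Ldha, the most abundant gene of that list, stood at 543 ± 54.8 CPM in knockouts and 376 ± 95.9 CPM in controls, without overlap (adjusted p = 0.272, edgeR). Of 17 tested genes of ATF4 and its stress response 5 rose and 1 fell, with a median log2 fold change of 1.34. Among all genes tested 0.414% were called higher and 4.66% lower. The list was written with earlier results for several of its genes known. Its calls numbered 2 to 5 with 1 library left out and 1 with the added secretory covariate. Atf4 itself was at 542, 388 and 368 CPM in knockout 1, 2 and 3, against 194, 221 and 108 CPM in control 1, 2 and 3 (adjusted p = 0.0585, edgeR). The members that rose included Psph, a serine synthesis gene (log2 fold change of 1.43 ± 0.21; adjusted p = 0.00981, edgeR), and Atf5, a stress transcription factor gene (1.58 ± 0.28; adjusted p = 0.0206). With 1 library left out, Psph was called in 5 of 6 fits (adjusted p of up to 0.0521, edgeR) and Atf5 in 2 of 6 (up to 0.0704). Nupr1, a stress-induced chromatin factor gene, fell to 4.08 ± 1.94 CPM in knockouts, against 1221 ± 253 CPM in controls (adjusted p = 4.38e-04, edgeR). Whether hypoxia or ATF4 has a part in the values of Adm or Adm2 was not tested.

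Several measures of tissue makeup moved with the same groups. The 3 ventral-type secretory genes were nearly absent from the knockouts and highest in control 3. That library had the lowest Adm2, the lowest Cpe and the highest Mme. Pam did not follow this order: it was highest in control 2, where the secretory sum was the lowest of the controls. Calcrl was at 4.41 to 4.68 CPM across the controls. With the log2 of the summed level of the 3 secretory genes as a covariate, log2 fold changes were 3.51 for Adm2, 3.14 for Cpe and -1.83 for Pam. With that level relative to control 3 instead, a form added after seeing the data, they were 1.07 for Adm2, 1.29 for Cpe and -1.12 for Pam. None of the 8 genes was called with either. Both covariates followed genotype over the 6 libraries (r = -0.97 for the log2 form and -0.79 for the other), so genotype and secretory makeup cannot be told apart in these libraries. The 14 smooth muscle markers summed to 3082 to 4718 CPM in knockouts and 1398 to 3044 CPM in controls. Of these markers 0 were called by edgeR or limma-voom and 5 by DESeq2, and 9 had an unadjusted p under 0.05 (edgeR). In the whole table, 3045 of 13762 genes tested had such a p and DESeq2 called 1618. The 13 immune markers summed to 298 to 474 CPM and 141 to 321 CPM, and the 12 epithelial markers to 2640 to 3473 CPM and 2767 to 3159 CPM, in knockouts and controls. Cd74 was the largest part of the immune sum in each library, at 338, 154 and 262 CPM in the knockouts and 52.6, 89.4 and 122 CPM in the controls. Lyz2, the next most abundant immune marker, overlapped between the groups, at 59.1 to 76.4 CPM in knockouts and 21.4 to 101 CPM in controls. The part that these differences in tissue makeup have in the values of the 8 genes was not tested. Without control 3 and knockout 1, log2 fold changes were 2.94 for Adm2, 1.49 for Cpe, -0.98 for Pam and 1.13 for Calcrl, and these 4 genes were called. In that same fit 6 smooth muscle, 6 immune, 5 fibroblast, 2 epithelial, 1 endothelial and 1 lymphatic marker were called too. With all 6 libraries 0 of each of these lists were called. Over all genes, the fit without control 3 and knockout 1 called 1229 of 14024 tested. The fit of all 6 libraries called 698 of 13762.

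**Figure D5:**
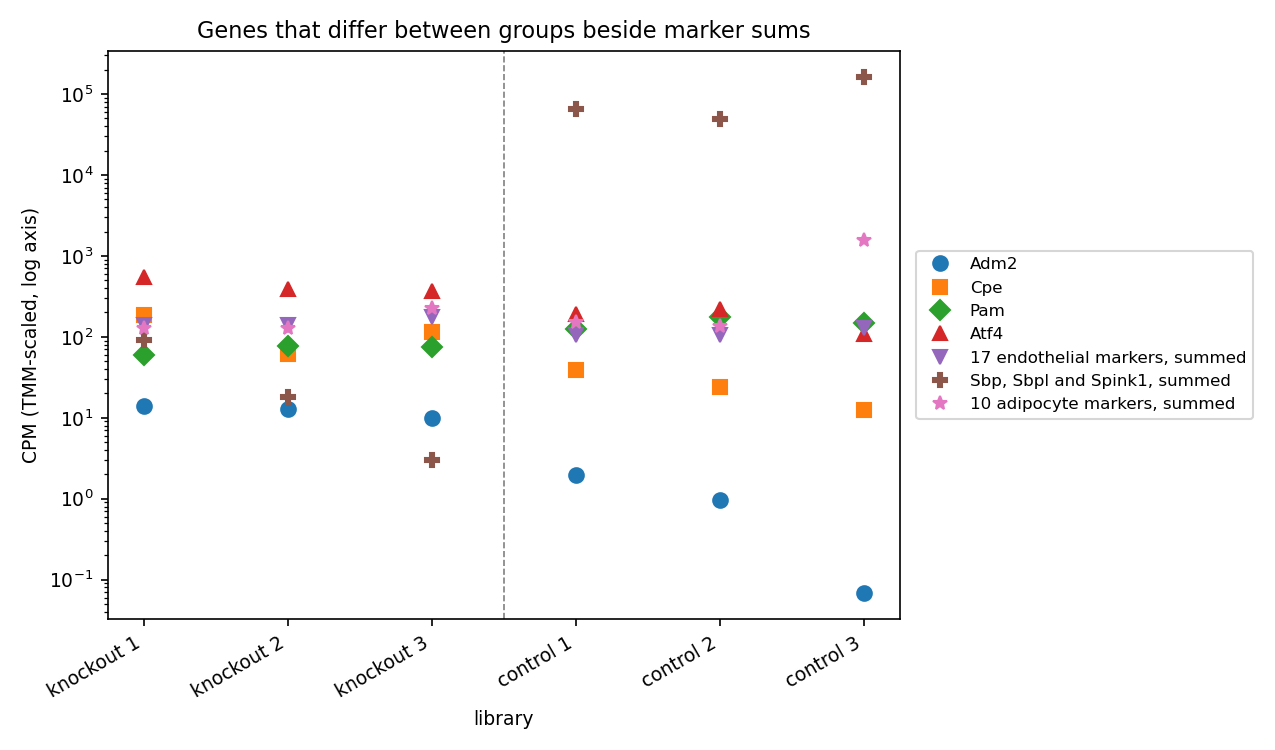
Level in each library, on a log axis of TMM-scaled CPM, of Adm2, Cpe, Pam and Atf4 beside the summed levels of 17 endothelial markers, 3 ventral-type secretory genes and 10 adipocyte markers; knockouts are left of the dashed line and controls right of it. The secretory sum was 3.03 to 91.7 CPM in knockouts and 49129 to 164610 CPM in controls, and control 3 had the lowest Adm2 (0.068 CPM) and the highest adipocyte sum (1559 CPM).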

How the data were processed

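RNA was extracted with Trizol from frozen whole prostates, and polyadenylated RNA was made into directional libraries and sequenced single-end, per the labels' protocols. STAR, DESeq2 and mm10 are named per the submitters' processing notes. Which program, annotation and strand option produced the counts is not given in the sources used here. The deposited values are raw read counts per gene in 1 table, and 0 of its sample columns were left unmapped. Replicate numbers follow sample order and pair nothing.

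Counts were fitted with edgeR 4.0.16 in R 4.3.3: expression filter with a minimum count of 10, TMM factors, no covariate, quasi-likelihood F test, Benjamini-Hochberg adjustment over all 13762 genes tested and a threshold of 0.05. Each SE was taken as the log2 fold change over the root of F. The fit was tested on simulated data. DESeq2 1.42.0 and limma 3.58.1 (voom) were alternatives, besides other scalings and filters and leaving out libraries. Levels per kilobase use the union of GENCODE M21 exons on GRCm38, the assembly of mm10. Such a union can be longer than the transcript expressed, which lowers the level given for that gene. No pair of libraries was a duplicate (chi-square per gene of at least 48.3). Reads carry no molecular identifiers, so the read floor covers counting error only.

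The 8 genes and the lists were chosen with earlier results of these data known. Named genes were the 8, up to 4 called genes and the 2 most abundant tested genes of a list, and for each of the 8 the 3 genes of highest r with a mean log2 CPM of at least 1; genes given only by reads or as not tested fall outside this rule. Single values of some genes on the lists are not reported here, and those genes stay in the lists' counts and sums.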

Additional observations from a re-analysis of the deposited data

How the results depend on the processing

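With all 6 libraries 3 of the 8 genes were called, Adm2, Cpe and Pam. The number was 0 to 2 with 1 library left out: 0 without any 1 knockout or control 2, and 2 (Adm2 and Pam) without control 1 or control 3. It was 0 at a false discovery rate of 0.01, 0 with the log2 ventral-type secretory level as a covariate (r = -0.97 with genotype, and 0 genes called in the whole table) and 0 with that level relative to control 3, added after seeing the data. The cause was not tested. Other scalings and filters gave 3, limma-voom 2, and DESeq2, a false discovery rate of 0.1 and leaving out control 3 and knockout 1 together 4. Among all genes tested 698 were called, against 1618 by DESeq2, 1229 without control 3 and knockout 1, 255 to 551 with 1 library left out, 170 with the added covariate, and 1190 and 246 at false discovery rates of 0.1 and 0.01.

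Without control 3 and knockout 1 the calls were 10 of the ATF4 list (6 with all libraries) and 3 of the receptor signalling list (1). They were 2 each of the calcitonin family and amidated precursor lists (1 each). Of the markers, 6 smooth muscle, 6 immune, 5 fibroblast, 2 epithelial, 1 endothelial and 1 lymphatic were called (0 each). In the order named, these lists had 17, 21, 4, 4, 14, 13, 14, 12, 17 and 5 genes tested with all 6 libraries. Over all genes, the fit without control 3 and knockout 1 called 1229 of 14024 tested, against 698 of 13762 with all libraries.

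Adm2, Cpe, Adm and Calcrl had positive and Pam negative log2 fold changes in all 17 alternatives run. With library size alone as scaling the median of all genes was -0.10 rather than 0.03, and Ramp2 changed sign (-0.04). Ramp2 also changed sign without knockout 3 (-0.23) or control 1 (-0.04) and with the log2 covariate (-1.72). Ramp1 changed sign with the log2 covariate (1.48) and the added one (0.35), and Ramp3 with the log2 covariate (1.49); the cause was not tested. Depth limits Ramp3, Ramp2, Adm and the controls of Adm2. No paired analysis was possible because the labels give the samples no shared replicate numbers.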
